A study of Homo sapiens with 2 samples.

Results

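The 9 genes described here encode the enzymes that make serine from a glycolytic intermediate and pass its side-chain carbon to folate: PHGDH, PSAT1, PSPH, SHMT1, SHMT2, MTHFD1, MTHFD2, MTHFD1L and ALDH1L2. They were taken by gene symbol, 9 of the 28615 symbols in the deposited expression table, and each symbol stood on 1 row. The libraries came from HCT116, a long-established line of human colorectal cancer cells: 1 has the genotype SRD5A1 knockdown and 1 the genotype control in the labels. SRD5A1 encodes a steroid 5-alpha reductase. The titles add "Dox" to the knockdown and "KD" to the control, and the labels explain neither tag, nor how the knockdown was made, nor whether either culture was a clone. With 1 library per group there was no replicate check and no test between conditions, so each difference below describes these libraries.

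Serine synthesis branches off glycolysis at phosphoglycerate. PHGDH oxidises it, PSAT1 transfers an amino group from glutamate, and PSPH removes the phosphate to leave serine. SHMT1 in the cytosol and SHMT2 in mitochondria split serine into glycine and a carbon unit carried by tetrahydrofolate. In mitochondria MTHFD2 oxidises that unit and MTHFD1L releases it as formate, while ALDH1L2 oxidises it to carbon dioxide. The cytosolic enzyme MTHFD1 takes formate back up into folate for purine and thymidylate synthesis. The transcription factor ATF4 is known to raise the serine synthesis genes and several of the mitochondrial folate genes when amino acids are short.

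Promoter sequences are shown first, so that the short motifs before the start sites can be read side by side. Higher values in the knockdown library were found for 8 of the 9 members. The same was true of 64.3% of all expressed genes (mean of at least 1 FPKM). RefSeq windows (GRCh38.p14) were matched for 6 of the 9 members: PHGDH, PSAT1, SHMT1, MTHFD1, MTHFD2 and MTHFD1L, the last with several start sites. The 250 bases before each start were searched on both strands for 4 motifs: the C/EBP-ATF response element bound by ATF4 (TGATGNAA), the E-box bound by MYC (CACGTG), the CCAAT box bound by NF-Y (CCAAT) and the GC box bound by SP1 (GGGCGG). PSAT1, the member with the largest difference between the libraries, has 3 CCAAT boxes on the gene's strand. They start 113, 83 and 52 bases before the start site and are in capitals in its window, chr9:78296875-78297124 on the plus strand, in which no exon is annotated.
PSAT1: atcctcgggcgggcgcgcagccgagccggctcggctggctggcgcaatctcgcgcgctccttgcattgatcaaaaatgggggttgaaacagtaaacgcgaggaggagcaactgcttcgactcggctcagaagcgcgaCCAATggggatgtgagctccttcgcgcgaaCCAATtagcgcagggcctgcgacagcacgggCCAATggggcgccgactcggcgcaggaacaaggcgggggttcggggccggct

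Each of the 6 matched members holds at least 1 CCAAT box in at least 1 of its windows. Of the 35116 single RefSeq windows of that length, 32% hold it. A member was counted over all its windows, here and for the motifs below, so the units differ for MTHFD1L, which has several. Its window at chr6:151006758-151007007 holds 0 CCAAT boxes. PSPH, SHMT2 and ALDH1L2 had no matched window and were not searched. Windows with 3 or more CCAAT boxes, as in PSAT1, are 2.93% of all windows. The CCAAT box nearest the start on the gene's strand is shown in capitals with 10 bases on either side for the other 5 genes. Upstream of the RefSeq start, annotated exons of other transcripts cover all 250 bases of the MTHFD1 window, 249 of the MTHFD2 window and 219 of the PHGDH window. They also cover 55 of this MTHFD1L window and 13 of the SHMT1 window. In the MTHFD2 window they include exons of another gene, AC073263.2. The sites lie at chr1:119711853-119711877 (PHGDH, plus strand), chr17:18363612-18363636 (SHMT1, minus strand), chr14:64388127-64388151 (MTHFD1, plus strand), chr2:74198531-74198555 (MTHFD2, plus strand) and chr6:150866283-150866307 (MTHFD1L, plus strand).
PHGDH: gtatttccgtCCAATcaaaaggaga
SHMT1: tgcgccgcagCCAATagcgcgggtg
MTHFD1: tttctttccgCCAATcatttccgcc
MTHFD2: gcggcagggaCCAATgggtggcgga
MTHFD1L: gtgggcatctCCAATgggcgcctag

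The C/EBP-ATF response element was found in the windows of MTHFD1L alone among the 6 genes, and 3.14% of all windows hold it. It is shown in capitals with its flanks, at chr6:150866347-150866374 on the plus strand, and it overlaps no other motif searched.
MTHFD1L: ccgccggctcTGATGCAAtcgcgccggg
The E-box was in the windows of MTHFD1 and MTHFD1L (6.34% of all windows) and the GC box in those of PSAT1, SHMT1 and MTHFD1L (42.6%). These matches describe letters in 250 bases and say nothing of binding. Whether the number of motifs goes with the difference between the libraries was not tested.

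The libraries held 54740670 (knockdown) and 41814981 (control) counts, and intervals given below cover counting error only. SRD5A1 itself was at 6.25 FPKM in the knockdown and 10.8 FPKM in the control library (3119 and 4101 counts), a ratio of 0.581 in CPM, the counts scaled to 1000000 per library (exact 95% interval 0.554 to 0.609). The share of counts from mitochondrially encoded genes was 12.8% for the knockdown and 18.3% for the control, and the part of this shift in the results below was not tested beyond 1 alternative scaling. Of 9 colorectal epithelial markers in the table, 8 were expressed in these libraries (summed 1671 and 1128 FPKM), while VIL1 had 4 counts in the knockdown library only. Of 17 adipocyte, leukocyte, fibroblast and endothelial markers in the table, LIPE, CD68 and COL1A1 were expressed. The leukocyte list summed to 1.35 FPKM in the knockdown and 7.86 FPKM in the control, nearly all from CD68, with PTPRC at 4 and 0 counts, and its part in the results was not tested. The adipocyte, fibroblast and endothelial lists summed to 1.68, 3.15 and 0.192 FPKM in the knockdown, against 1.68, 4.26 and 0.117 FPKM in the control.

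In the knockdown library 5 of the 9 members were higher by at least 2-fold (PSAT1, PSPH, PHGDH, SHMT1 and SHMT2), 0 were lower by that much and 4 lay between. A difference is log2(FPKM + 1) in the knockdown minus the control, which understates the change of weak genes, and 2-fold means a difference of at least 1. Among the 10143 symbols expressed at a mean of at least 1 FPKM, 20.9% passed 2-fold upward and 6.83% downward by the same rule. The median difference was 1.31 over all 9 members and 0.30 over all expressed genes. The 9 members together took 1798 CPM in the knockdown and 621 CPM in the control library, a ratio of 2.90 (exact 95% interval 2.86 to 2.94), and 2.56 (2.53 to 2.60) without PSAT1. In bulk libraries, more cells that express a gene and more RNA of it per cell cannot be told apart.

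**Figure D1:**
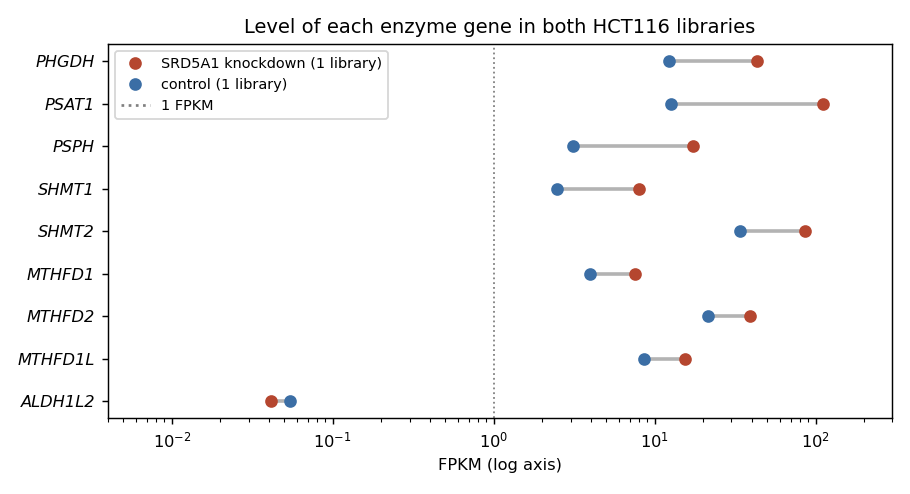
Level of the 9 enzyme genes in FPKM on a log axis, with 1 point for the knockdown library and 1 for the control library, and no error bars because each group has 1 library. The knockdown point lies to the right for 8 genes, with the widest gap for PSAT1 (111 against 12.7 FPKM), while ALDH1L2 lies near 0.05 FPKM in both.

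The serine synthesis genes stood furthest apart. PSAT1 (ENSG00000135069, chromosome 9, 78297125 to 78330093, plus strand) was at 111 FPKM in the knockdown and 12.7 FPKM in the control library. These levels rest on 15998 counts (exact Poisson 95% interval 15751 to 16248) and 1400 counts (1328 to 1475). The difference was 3.03, the CPM ratio was 8.73 (8.26 to 9.23), and 0.463% of expressed genes had a larger difference. PSAT1 was thus the member with the widest gap, and its principal transcript has 9 exons and 2188 bases.

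PSPH (ENSG00000146733, chromosome 7, 56011051 to 56051467, minus strand), which carries out the last step, was at 17.4 FPKM in the knockdown and 3.10 FPKM in the control library, from 3140 (3031 to 3252) and 429 (389 to 472) counts. Its difference was 2.16 and its CPM ratio 5.59 (5.05 to 6.20), with 2.56% of expressed genes further up. PSPHP1, a pseudogene copy of PSPH, went the other way at 8.83 against 15.2 FPKM, from 151 and 198 counts. Reads can be split between the copies, so the PSPH values carry that uncertainty. The sign of PSPHP1 turned once the trend with transcript length was removed, where its difference was 0.19.

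PHGDH (ENSG00000092621, chromosome 1, 119648411 to 119744226, plus strand), which commits phosphoglycerate to serine, was at 43.5 FPKM in the knockdown and 12.3 FPKM in the control library. The counts were 26213 (25897 to 26532) and 5660 (5513 to 5809), the difference was 1.74, and the CPM ratio was 3.54 (3.44 to 3.64). It had the highest count of the members in the knockdown library. The steps of the branch thus stood in the order PSAT1, PSPH, PHGDH by size of difference, and their CPM intervals did not overlap. As a branch they took 828 CPM in the knockdown and 179 CPM in the control, a ratio of 4.63 (4.51 to 4.74).

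The serine hydroxymethyltransferases followed. SHMT1 (ENSG00000176974, chromosome 17, 18327860 to 18363563, minus strand), the cytosolic form, was at 7.99 FPKM in the knockdown and 2.46 FPKM in the control library, from 3814 (3694 to 3937) and 899 (841 to 960) counts. Its difference was 1.38 and its CPM ratio 3.24 (3.01 to 3.49). SHMT2 (ENSG00000182199, chromosome 12, 57229573 to 57234935, plus strand), the mitochondrial form, was at 86.1 FPKM in the knockdown and 34.1 FPKM in the control library, from 25842 (25528 to 26159) and 7816 (7644 to 7991) counts. Its difference was 1.31 and its CPM ratio 2.53 (2.46 to 2.59). The mitochondrial form was the more abundant in both libraries, and the cytosolic form showed the larger ratio.

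The enzymes that carry the folate-bound unit onward were higher by less than 2-fold. MTHFD2 (ENSG00000065911, chromosome 2, 74198610 to 74215298, plus strand), the mitochondrial dehydrogenase and cyclohydrolase, was at 38.9 FPKM in the knockdown and 21.4 FPKM in the control library, from 12257 (12041 to 12476) and 5152 (5012 to 5295) counts. The difference was 0.83 and the CPM ratio 1.82 (1.76 to 1.88). MTHFD1L (ENSG00000120254, chromosome 6, 150865549 to 151101887, plus strand), the mitochondrial formate-releasing synthetase, was at 15.5 against 8.59 FPKM, from 5092 (4953 to 5234) and 2155 (2065 to 2248) counts, with a difference of 0.78 and a CPM ratio of 1.80 (1.72 to 1.90). These values put both mitochondrial genes close together, and the cytosolic enzyme lay beside them.

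MTHFD1 (ENSG00000100714, chromosome 14, 64388031 to 64463457, plus strand), the cytosolic trifunctional enzyme, was at 7.55 FPKM in the knockdown and 3.94 FPKM in the control library. The counts were 6028 (5877 to 6182) and 2410 (2315 to 2508), the difference was 0.79, and the CPM ratio was 1.91 (1.82 to 2.004). The intervals of these 3 genes overlapped. Larger differences than theirs were found in 26.4% (MTHFD2), 27.9% (MTHFD1) and 28.3% (MTHFD1L) of expressed genes, so they lay within the upper part of the general spread. Summed, the 3 genes took 427 CPM in the knockdown and 232 CPM in the control, a ratio of 1.84 (1.79 to 1.88).

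ALDH1L2 (ENSG00000136010, chromosome 12, 105019784 to 105084458, minus strand), the mitochondrial formyltetrahydrofolate dehydrogenase, had 26 counts in each library (exact Poisson 95% interval 17.0 to 38.1). Its levels were 0.0412 FPKM in the knockdown and 0.0540 FPKM in the control, and the CPM ratio of 0.764 had an interval of 0.426 to 1.37. It was the one member below the limit for expressed genes, and its interval included 1. For counting error alone the interval lay below that of each other member, the nearest being MTHFD1L (1.72 to 1.90). The cytosolic counterpart of ALDH1L2, ALDH1L1, had 0 counts in the knockdown library and 16 in the control.

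**Figure D2:**
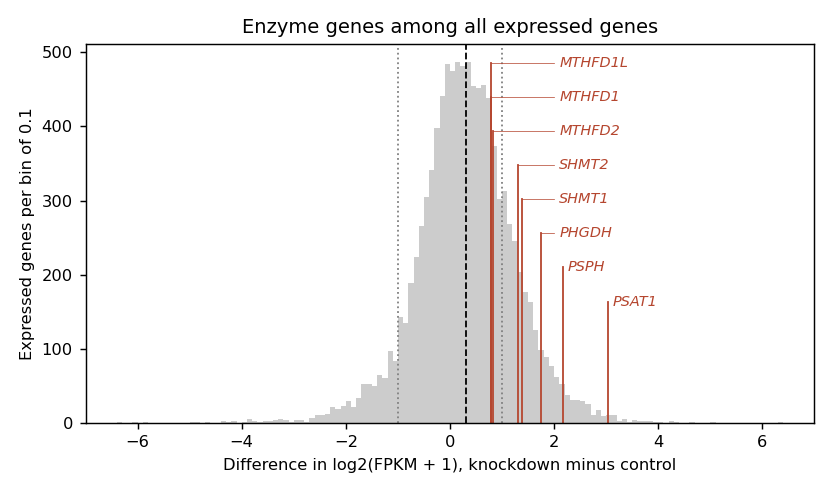
Histogram of the log2(FPKM + 1) difference, knockdown minus control, over the 10143 expressed genes in bins of 0.1, with the 8 expressed enzyme genes marked by red lines whose height carries no value. The dashed line is the median of all expressed genes (0.30), the dotted lines are 2-fold, and PSAT1 at 3.03 lies in the far right tail while the MTHFD genes lie on its inner shoulder.

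The ratio between the counts of 2 genes within a library does not depend on how the libraries are scaled, and 11 such ratios were compared, each with a Wald 95% interval for counting error. The ratio of PSAT1 to PHGDH counts was 0.610 in the knockdown and 0.247 in the control, a 2.47-fold larger ratio (2.32 to 2.62). The PSPH to PHGDH ratio was 1.58-fold larger in the knockdown (1.42 to 1.76), and the PSAT1 to PSPH ratio 1.56-fold larger (1.39 to 1.75). The serine synthesis genes thus differed between the libraries by unequal factors.

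In the deposited counts the MTHFD genes kept nearly the same proportions. MTHFD1L to MTHFD2 was 0.415 in the knockdown and 0.418 in the control, a ratio of ratios of 0.993 (0.935 to 1.05). MTHFD2 to MTHFD1 gave 0.951 (0.898 to 1.01), and MTHFD1L to MTHFD1 gave 0.945 (0.882 to 1.01). Their intervals include 1 for counting error alone, and this does not show that the genes moved alike in other cultures. Count ratios are not corrected for GC content or length. With that trend removed the differences stood further apart, at 1.01 (MTHFD2), 0.78 (MTHFD1) and 0.71 (MTHFD1L).

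Between the steps the proportions differed. SHMT2 to MTHFD2, successive steps in mitochondria, was 2.11 in the knockdown and 1.52 in the control, a 1.39-fold larger ratio (1.33 to 1.45). SHMT2 to SHMT1 was 6.78 in the knockdown and 8.69 in the control, a ratio of ratios of 0.779 (0.722 to 0.842), so the share of the cytosolic form was the larger in the knockdown library. SHMT1 to TYMS, the thymidylate synthase with which SHMT1 works in the cytosol, was 1.08 in the knockdown and 1.06 in the control, a ratio of ratios of 1.02 (0.919 to 1.13).

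**Figure D3:**
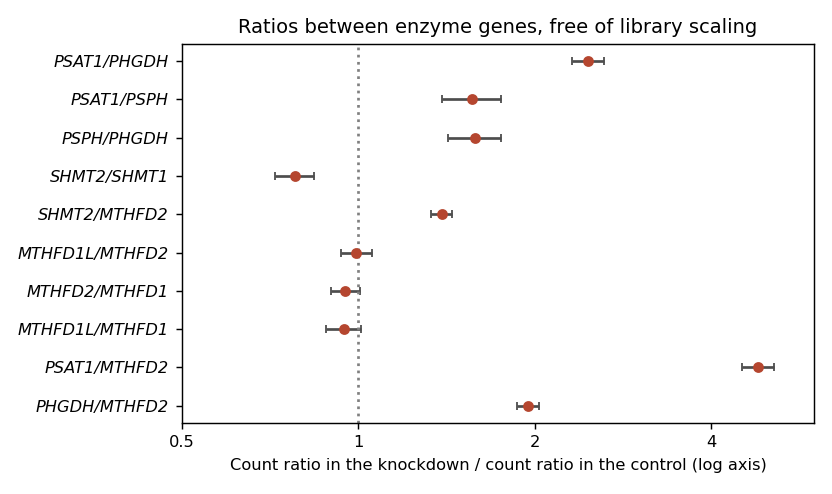
Count ratio of 10 pairs of enzyme genes in the knockdown library divided by the same ratio in the control library, on a log axis, with Wald 95% intervals for counting error only. The pairs among MTHFD1, MTHFD2 and MTHFD1L lie at 0.945 to 0.993, next to the dotted line at 1, and PSAT1 to MTHFD2 lies at 4.80.

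The order of the levels differed between the libraries and with the length used. In FPKM the control library ran SHMT2 (34.1), MTHFD2 (21.4), PSAT1 (12.7), PHGDH (12.3), MTHFD1L (8.59), MTHFD1 (3.94), PSPH (3.10), SHMT1 (2.46) and ALDH1L2, while PSAT1 (111) stood ahead of SHMT2 (86.1) in the knockdown. The deposited FPKM divides by the length of all exons of a gene merged: in 8906 genes, each with 200 or more counts per library, the length implied by counts and FPKM was a near-constant multiple of the merged exon length in GENCODE 29 (median 1.195, quartiles 1.193 and 1.198). That length is 3.57 times the principal transcript for PHGDH, 2.99 times for MTHFD1 and 2.95 times for SHMT1, against 1 for PSAT1. The implied length was 1.56 times the merged exons in GENCODE 29 for MTHFD1 and 1.36 times for ALDH1L2, above that median of 1.195. For SHMT2 it was 1.13 times, below the median, and the reasons were not tested. The rows of PSAT1, PSPH, SHMT2, MTHFD2 and ALDH1L2 do not have the GENCODE 29 coordinates.

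Per kilobase of principal transcript, the level of PHGDH was 185 CPM per kilobase in the knockdown library, beside SHMT2 at 186 and above PSAT1 at 134. In the control library the same measure gave SHMT2 73.7, PHGDH 52.4, MTHFD2 27.7, MTHFD1 18.4, PSAT1 15.3, MTHFD1L 14.3, SHMT1 8.73 and PSPH 4.71 CPM per kilobase. PSAT1 therefore stood in the fifth place of the control library and the third of the knockdown library on this scale. The choice of length moves the order of levels and leaves the CPM ratio of a gene between the libraries as it is.

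Scaling mattered for the size of the differences. Relative to deposited scaling, the median difference of all expressed genes moved by -0.20 with TMM, by -0.30 with the median ratio set to 1 and by -0.40 with the upper quartile. PSAT1, PSPH and PHGDH stayed at least 2-fold higher in all 13 settings run, the main one included. All members other than ALDH1L2 stayed above 0, where 64.3% of expressed genes lay in the main measure. Dropping the filter, raising it to 5 FPKM or taking the highest row only could not change a member's value. Those settings alter the set of expressed genes or the choice of row, and each member stands on 1 row. SHMT1 and SHMT2 fell under 2-fold in 2 settings each: SHMT1 was at 0.80 with a pseudocount of 5 and at 0.97 with the upper quartile, and SHMT2 was at 0.94 with the median ratio set to 1 and at 0.82 with the upper quartile. Taken relative to the median of expressed genes, PSAT1 was at 2.73 (2.65 to 2.81 over the scalings and trend corrections), PHGDH at 1.44 (1.20 to 1.51) and MTHFD1L at 0.48 (0.36 to 0.54).

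**Figure D4:**
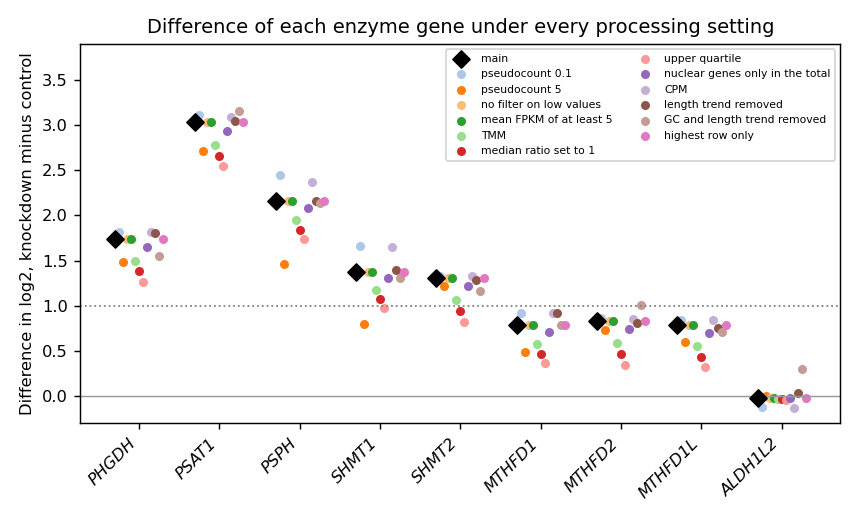
Difference of each enzyme gene, knockdown minus control on a log2 scale, under the main measure (black diamonds) and 12 alternatives (coloured points), with the dotted line at 2-fold and no error bars; "highest row only" takes 1 row per symbol. The upper quartile gives the lowest values for most genes, for example 2.55 for PSAT1 and 0.32 for MTHFD1L, and ALDH1L2 alone lies on both sides of 0.

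The members share little in position or composition. They lie on 8 chromosomes, SHMT2 and ALDH1L2 both on chromosome 12. The GC content of the principal transcripts runs from 41.4% (MTHFD2) to 58.3% (PHGDH), with PSAT1 at 42.3%, and their exon numbers from 8 to 28. With the GC and length trend of all expressed genes removed, PSAT1 was at 3.16, PHGDH at 1.55 and MTHFD2 at 1.01, which moved MTHFD2 past the 2-fold line. Exons of 8 other genes overlap those of 5 members on the opposite strand (ALDH1L2, MTHFD1, MTHFD2, SHMT1 and SHMT2). As use of strand is not given, such reads cannot be told apart. The most counted of these neighbours was SMCR8 beside SHMT1, with 1693 and 1082 counts over its whole length. C12orf45, which overlaps ALDH1L2 by 145 bases, had 577 (knockdown) and 280 (control) counts, against 26 in each library for ALDH1L2. Its part in the ALDH1L2 counts was not tested.

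Genes connected to the pathway were read from 7 lists, whose counts stand beside the 20.9% upward and 6.83% downward of all expressed genes. In the other folate enzymes and carriers, 7 of 12 expressed genes were higher by at least 2-fold and 0 lower, with a median of 1.25. MTHFS, which returns formyltetrahydrofolate to the pool, was at 10.3 against 1.87 FPKM (difference 1.98). TYMS was at 22.4 against 7.04 FPKM (1.54), FPGS, which adds glutamates that hold folate in the cell, at 13.4 against 5.17 FPKM (1.22), and the folate receptor FOLR1 at 13.1 against 19.6 FPKM (-0.55).

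The list of glycine cleavage and serine import also holds other genes of serine and glycine metabolism. In it 2 of 9 expressed genes (22.2%) passed 2-fold upward, close to the share of all expressed genes, and 0 downward, with a median of 0.83. They were SDSL and SRR (1.48), which belong to neither named process. The glycine cleavage genes GLDC (0.32), GCSH (0.86) and DLD (0.83) and the carriers SFXN1 and SFXN3 stayed under 2-fold. SRR, GLDC, GCSH and DLD were picked after their values were seen. SDSL, a serine dehydratase-like protein, was at 24.3 against 2.25 FPKM (2.96), close to PSAT1 in size of difference. GCAT, of threonine and glycine metabolism, was at 20.4 against 10.9 FPKM (0.84). The mitochondrial serine carrier SFXN1 was at 7.79 against 6.35 FPKM (0.26) and its relative SFXN3 at 14.7 against 10.4 FPKM (0.46), and both turned sign under some scalings (to -0.18 and -0.0025). SFXN2, another relative that was picked after its values were seen and lies under 1 FPKM on average, had 927 and 68 counts, a CPM ratio of 10.4 (8.14 to 13.5).

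In the methionine cycle, which takes its methyl group from folate, 3 of 10 expressed genes were higher by at least 2-fold and 1 lower, with a median of 0.30. MAT2A, which makes S-adenosylmethionine, was at 56.3 against 10.5 FPKM (2.31). AHCY, which clears S-adenosylhomocysteine, was at 189 against 152 FPKM (0.31, and -0.19 with the upper quartile), and its relative AHCYL1 at 10.7 against 27.4 FPKM (-1.28). The list median equalled that of all expressed genes to 2 decimals and turned sign with scaling (-0.13 to 0.33).

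Of 14 purine and thymidylate genes, which consume the carbon units, 6 were at least 2-fold higher and 0 lower, with a median of 0.63; SHMT1 itself is 1 of the 6. GART, which uses formyltetrahydrofolate in purine synthesis, was at 17.1 against 3.32 FPKM (2.06), and ADSL, which acts in the same pathway without folate, at 14.8 against 3.01 FPKM (1.98). ATIC, the other folate-using purine enzyme, was at 25.9 against 15.3 FPKM (0.73; picked after its values were seen). Wide and narrow gaps thus occurred among folate-using steps, and a wide one in a step without folate.

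**Figure D5:**
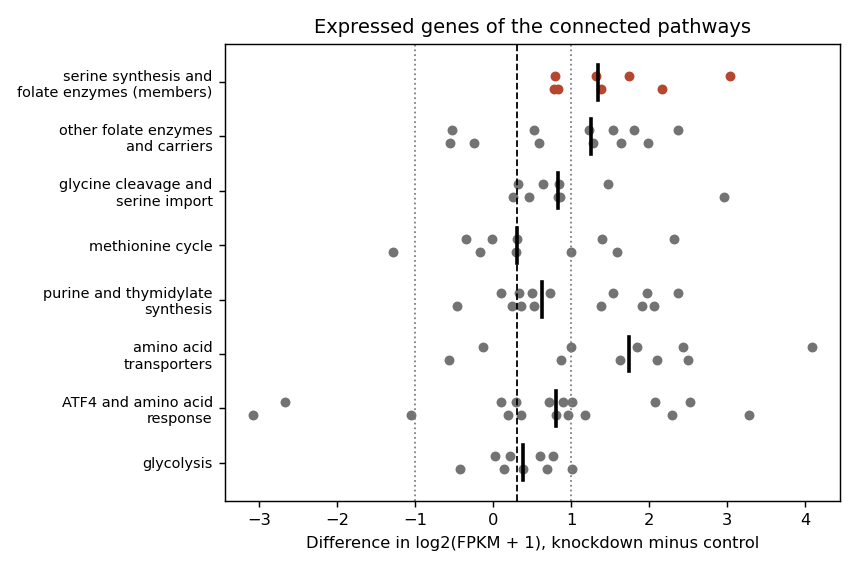
Difference of each expressed gene in log2(FPKM + 1), knockdown minus control, for the serine and folate enzymes (red, 8 expressed of 9) and 7 connected lists (grey), with list medians as black bars, the median of all expressed genes (0.30) dashed and 2-fold dotted. Medians run from 0.30 in the methionine cycle to 1.73 in the amino acid transporters, and the ATF4 list spreads from -3.07 to 3.28.

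Among the amino acid transporters, 6 of 10 expressed genes passed 2-fold upward and 0 downward, with a median of 1.73. SLC1A5 was at 295 against 16.4 FPKM (4.09), SLC7A5 at 341 against 94.0 FPKM (1.85), its heavy chain SLC3A2 at 117 against 37.3 FPKM (1.62) and the glutamine and serine carrier SLC38A5 at 11.2 against 1.85 FPKM (2.09). SLC1A4, a serine and alanine carrier, and SLC6A9, a glycine carrier, were picked after their values were seen and had CPM ratios of 18.3 (15.2 to 22.2) and 14.5 (12.1 to 17.4). Also picked afterwards, SLC36A1 and SLC7A8, which carry neutral amino acids, lay the other way with differences of -0.57 and -0.14 and CPM ratios of 0.476 (0.416 to 0.544) and 0.887 (0.818 to 0.962).

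The ATF4 list split. ATF4 itself was at 497 against 301 FPKM (0.72), and 6 of 17 expressed genes passed 2-fold upward and 3 downward, with a median of 0.80. PCK2 was at 49.9 against 4.25 FPKM (3.28) and CHAC1, which degrades glutathione, at 60.9 against 9.81 FPKM (2.52), while the stress factors DDIT3 (21.6 against 189 FPKM, -3.07) and ATF3 (7.14 against 50.7 FPKM, -2.67) lay opposite to the serine genes. MYC, a transcription factor of growth genes, was at 21.0 against 10.996 FPKM (0.88).

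Glycolytic genes, which act before or after phosphoglycerate, had 1 of 9 expressed genes at least 2-fold higher (PGAM1) and 0 lower. Their median of 0.38 turned sign with scaling (-0.11 to 0.39). PGAM1, which draws phosphoglycerate onward, was at 151 against 74.5 FPKM (1.01), PGK1, which makes it, at 111 against 65.0 FPKM (0.76), PKM at 308 against 190 FPKM (0.69) and ALDOA at 203 against 273 FPKM (-0.43). The gap of PGK1 was thus smaller than that of PHGDH, the enzyme next in line.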

How the data were processed

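The authors deposited FPKM values and raw counts per gene row for 1 knockdown and 1 control library of HCT116, per the file headers. Columns were matched to samples by the tags "Dox" and "KD" in the titles, and groups by the labelled genotype. Poly(A) RNA was sequenced as paired ends, per the labels' protocols. Bowtie 0.12.2, HISAT2 2.0 and StringTie 1.3.0 and the mouse build mm8 are named in the submitters' processing notes, without roles. The table holds human identifiers, and 69.3% of the 31659 rows found in GENCODE 29 have its coordinates, so positions are on GRCh38. Neither the counting program nor the use of strand is stated (not given in the sources used here).

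Rows were summed by symbol. Differences were taken in log2(FPKM + 1), knockdown minus control, with genes at a mean of at least 1 FPKM called expressed. CPM ratios carry exact Clopper-Pearson 95% intervals and counts exact Poisson intervals. They cover counting error only, as reads were not tied to single molecules, and depth was 54740670 and 41814981 counts. The 12 alternatives changed the pseudocount, filter, scaling (TMM by edgeR 4.0.16), unit, row choice or length and GC trend, and the steps were tested on simulated data. Besides the members, SRD5A1, ATF4 and MYC, the text names from each list up to 4 genes that differed most, at a mean of at least 5 FPKM, 1 of them against the list's median where one exists. The members, lists, motifs and pairs were chosen with earlier results of these data known. Some genes of the lists are not reported here.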

Additional observations from a re-analysis of the deposited data

How the results depend on the processing

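With 1 library per group no library could be left out. No paired analysis was possible because the groups share fewer than 2 replicate numbers. The count of members at least 2-fold higher was 5 in the main measure and 3 with the upper quartile (PSAT1, PSPH and PHGDH, against 11.2% of expressed genes); the count at least 2-fold lower was 0 in all settings. The median over the members was 1.31 in the main measure, 0.80 with a pseudocount of 5, 1.06 with TMM, 0.94 with the median ratio set to 1, 0.82 with the upper quartile, 1.22 with nuclear genes only in the total and 1.16 after the GC and length trend was removed. Expressed genes at least 2-fold higher numbered 2115 and at least 2-fold lower 693 (75.3% higher) in the main measure, against 730 and 278 with a pseudocount of 5, 1136 and 345 at a mean of at least 5 FPKM, 1325 and 1175 (53.0% higher) with the median ratio set to 1, 1137 and 1385 (45.1% higher) with the upper quartile, 1548 and 974 (61.4% higher) with TMM and 3383 and 1317 in CPM. Depth limits ALDH1L2: with 26 counts per library its CPM ratio had an interval of 0.426 to 1.37, and differences within it could not be shown. The spread between cultures is unknown.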
